A study of Homo sapiens with 6 samples.

Results

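The mitochondrial ribosomal protein genes were taken from RNA sequencing of LNCaP, a human prostate cancer cell line that is luminal and responsive to androgen. Every row whose symbol begins with MRPL or MRPS and a number was a member, without pseudogenes and without hyphenated antisense names. This gave 77 of the 17297 genes in the table, 29 named for the small subunit (MRPS) and 48 for the large subunit (MRPL). The genes were compared between 2 stably transduced lines, both kept under puromycin. The line pBabe-GNA13 overexpressed wild-type GNA13 (Gα13) from the pBabe backbone, and pBabe-vector held the backbone without an insert. Each line gave 3 biological replicates grown on plates for 48 h, so each condition rests on 1 transduced population. The labels do not say whether replicates were separate cultures from the start, and p-values measure only the spread between these libraries.

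The mitochondrial ribosome (mitoribosome) translates the few proteins encoded by mitochondrial DNA, all of them subunits of the oxidative phosphorylation complexes. Its rRNAs are transcribed inside the organelle, whereas its proteins are encoded in the nucleus, made in the cytosol and imported. The small subunit binds the mRNA and holds the decoding site, and the large subunit holds the peptidyl transferase centre and the tunnel that leads the new chain to the inner membrane. Many of the proteins descend from bacterial ribosomal proteins, and others are found in mitochondria only.

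GNA13 stood at 820, 886 and 747 CPM (counts scaled to a fixed library total) in the 3 pBabe-GNA13 libraries and at 76.7, 69.4 and 65.4 in pBabe-vector, as the labels say (log2 fold change 3.54 ± 0.12 SE, adjusted p = 9.12e-05, edgeR). Library totals ran from 33002160 to 40628970 counts, which is deep for these genes: 76 of the 77 had a mean of at least 1 CPM. One library of each line carries the tag std. In pBabe-vector it is replicate 1, and in pBabe-GNA13 its number is not clear. Libraries with the same number or tag deviated together, so results are also given from a second fit in which these 3 pairs form a block. The prostate luminal markers KLK3 and HOXB13 were abundant in all libraries. Among 7 markers of other cells in the table, HBB, the beta chain of haemoglobin, was at 30.3 and 33.5 CPM in pBabe-GNA13 std and replicate 3, at 3.05 and 3.08 CPM in pBabe-vector replicates 1 and 3, and at 0 in both replicate 2 libraries, where a count of 3 would be 0.0881 and 0.0886 CPM. COL1A2, KRT5 and ALB followed the same pattern at lower levels, and VIM, COL1A1 and TP63 did not. The summed level of the 7 markers was 21.4 to 64.5 CPM in pBabe-GNA13 and 17.8 to 29.4 CPM in pBabe-vector.

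Some short sequence elements, which were not used to choose the genes, were more frequent in their promoters than in all promoters. Windows from 250 bases before to 50 after the start were given by RefSeq (GRCh38.p14) for 68 of the 77 genes, the first listed start being used. CCGGAAG, the core bound by ETS factors such as GABP, was present on either strand in 28 of 68 (41.2%), against 10.7% of all 27305 promoters and 19.9% of those of genes with at least 1 CPM here. AAGATGG, the core bound by YY1, was present in 23 (33.8%), against 6.06% and 7.91%. At least one of these cores stood in 42 of the 68 (61.8%), against 15.9% and 26.0%, and the other members with a window held neither. Both cores stood in 9 of the 68 (13.2%), against 0.872% and 1.83%, and in no member did the pair share letters as CCGGAAGATGG. Cytosolic ribosomal protein genes held CCGGAAG in 33.9% and AAGATGG in 12.9% of 62 promoters. The other elements are given beside all promoters and beside those of genes with at least 1 CPM. The TATA box TATAAA was found in 2.94% of member promoters, against 11.95% and 4.86%. The NRF1 core GCGCATGC was found in 8.82%, against 3.27% and 5.84%, and CCAAT in 29.4%, against 35.7% and 37.1%. The E-box CACGTG in 8.82% and the SP1 box GGGCGG in 60.3% were above their shares of all promoters (7.43% and 44.6%) and below those of genes with at least 1 CPM (10.4% and 71.0%). A match of letters is a description of the window and does not show binding. The window includes the first 50 transcribed bases, and AAGATGG contains the letters ATG of a start codon. Whether matches lay at a translation start was not tested.

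The 6 promoters with both cores in the stretch around the start are printed because they show where the elements lie, each over the 120 bases before the start and the first 30 after it, 5′ to 3′ in the direction of transcription, with CCGGAAG and AAGATGG in capitals on either strand (CTTCCGG and CCATCTT are their reverse complements).
MRPL51 (chr12:6493233-6493382, minus strand): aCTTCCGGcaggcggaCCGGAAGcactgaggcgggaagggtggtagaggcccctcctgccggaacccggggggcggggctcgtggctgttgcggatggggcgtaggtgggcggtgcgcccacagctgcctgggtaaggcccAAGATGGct
MRPS18A (chr6:43687762-43687911, minus strand): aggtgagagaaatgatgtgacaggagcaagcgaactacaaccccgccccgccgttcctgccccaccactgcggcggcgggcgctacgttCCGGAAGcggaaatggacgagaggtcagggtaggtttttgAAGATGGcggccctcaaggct
MRPL20 (chr1:1407264-1407413, minus strand): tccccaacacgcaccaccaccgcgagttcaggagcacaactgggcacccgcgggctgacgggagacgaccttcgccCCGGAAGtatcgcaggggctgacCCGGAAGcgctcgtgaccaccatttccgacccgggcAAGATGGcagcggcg
MRPS10 (chr6:42217832-42217981, minus strand): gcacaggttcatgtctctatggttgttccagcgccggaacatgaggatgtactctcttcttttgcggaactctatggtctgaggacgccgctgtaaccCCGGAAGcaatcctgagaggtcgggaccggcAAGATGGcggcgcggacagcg
MRPL47 (chr3:179604609-179604758, minus strand): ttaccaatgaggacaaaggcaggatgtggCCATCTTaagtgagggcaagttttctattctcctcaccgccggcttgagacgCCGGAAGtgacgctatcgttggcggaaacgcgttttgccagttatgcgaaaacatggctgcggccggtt
MRPL52 (chr14:22829767-22829916, plus strand): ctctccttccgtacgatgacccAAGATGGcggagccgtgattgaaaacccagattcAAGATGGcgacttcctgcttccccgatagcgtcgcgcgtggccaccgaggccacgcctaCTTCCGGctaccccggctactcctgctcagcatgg
In MRPL51, MRPS18A, MRPL20 and MRPS10, AAGATGG lies just after the annotated start and reads in the direction of transcription, and CCGGAAG lies upstream of the start. MRPL47 and MRPL52 are arranged otherwise. In MRPL47 the YY1 core is reversed and lies upstream of CCGGAAG, and in MRPL52 both copies of AAGATGG lie upstream while the ETS core is reversed and touches the start. The placement thus varied among the members.

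Levels differed widely within the family. Divided by the length of the canonical transcript, the mean level ran from 0.496 to 217 CPM per kilobase, with a median of 24.9 in the small subunit and 40.2 in the large subunit. The transcripts are short, with a median of 1260 bases against 3324 for all annotated genes with at least 1 CPM, and their median GC content was 48.0% against 48.5%.

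Among small subunit genes, MRPS34 stood highest at 157 ± 25.4 CPM per kilobase (SD, n = 6 libraries). MRPS15 at 125 ± 12.3 and MRPS26 at 114 ± 9.78 followed with overlapping SD ranges, and their order was not tested. MRPS15 descends from a bacterial protein, and MRPS34 and MRPS26 belong to the part of the small subunit found in mitochondria only. The lowest were MRPS31 at 11.2 ± 1.09, MRPS17 at 10.9 ± 1.39 and MRPS24 at 0.496 ± 0.193. MRPS24 was far below every other member, with 5 to 19 counts per library. Its exons are shared with the readthrough gene URGCP-MRPS24 on the same strand, and reads that fit both genes may not have been counted, so its level is uncertain.

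In the large subunit, MRPL41 at 217 ± 13.2 CPM per kilobase and MRPL20 at 201 ± 15.5 stood highest with overlapping SD ranges. MRPL24 followed at 167 ± 17.8, and the order of these genes was not tested. MRPL20 and MRPL24 have bacterial counterparts and MRPL41 does not. At the other end, MRPL42 stood at 8.46 ± 0.987, MRPL38 at 3.45 ± 0.521 and MRPL53 at 3.16 ± 0.587. The low value of MRPL42 comes with a canonical transcript of 15557 bases, and its level without division by length was 110 to 153 CPM. MRPL53 overlaps exons of CCDC142 on the same strand. In all, 18 members share exon sequence with a gene on their own strand, 30 with a gene on the opposite strand, 36 with no gene, and 36 have named pseudogenes in the annotation, none of which is listed in the table. Whether the counting used strand is not stated in the sources used here, so values of overlapping genes are less certain.

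**Figure D1:**
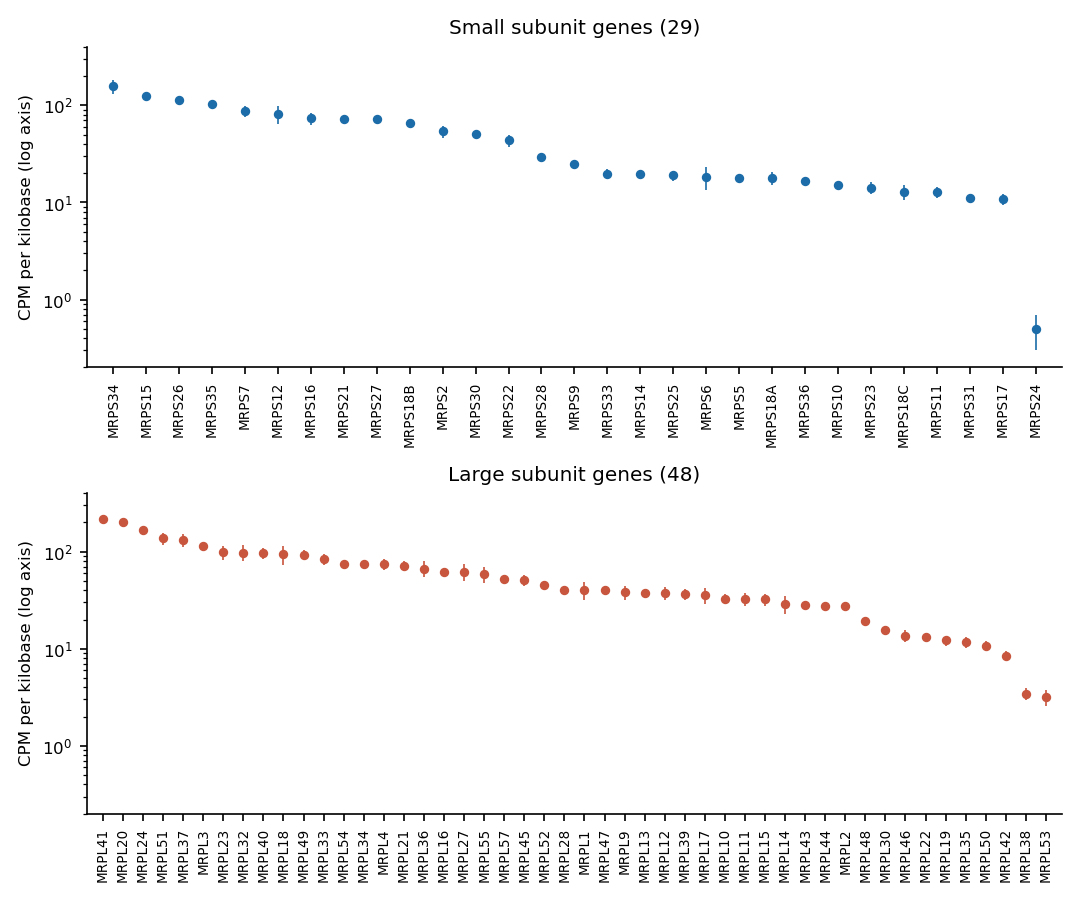
Mean level of each mitochondrial ribosomal protein gene over the 6 libraries in CPM per kilobase of canonical transcript (log axis), small subunit above and large subunit below, sorted by level, with bars of ± 1 SD. MRPL41 is highest at 217 CPM per kilobase, and MRPS24 stands alone at 0.496.

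The first comparison asks whether the mitoribosome genes differ between the pBabe-GNA13 and pBabe-vector lines. Differences were small. The libraries are bulk samples, in which fewer cells of a kind and less RNA per cell cannot be told apart. The median log2 fold change over the 77 genes was −0.06, beside −0.01 over all genes with at least 1 CPM. It was −0.08 in the small subunit and −0.05 in the large subunit, and in every gene except MRPS24 it lay between −0.30 and 0.22. The log2 fold change was below 0 in 51 of the 77 genes (19 of 29 small and 32 of 48 large), while 50.3% of all genes were below 0. Lower values in all 3 pairs were found in 34 genes (25.3% of all genes) and higher values in all 3 pairs in 11 (22.6% of all genes).

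None of the 77 genes passed an adjusted p of 0.05 in the fit without pairs, by edgeR (0.139% of all genes did) or by DESeq2 (1.62%). At an unadjusted p under 0.05 the count was 2, MRPL45 and MRPL40, by both tools, against 8.46% of all genes in edgeR. In 3 genes each pBabe-GNA13 library was below each pBabe-vector library (6.79% of all genes), and in 0 genes was each above (7.30%). Leaving out 1 library at a time in the fit without pairs gave family medians of −0.13 to 0.04. The family median was above 0 without pBabe-GNA13 replicate 2 (0.01) or without pBabe-vector replicate 3 (0.04). Such a fit keeps the partner of the library left out, so the difference between replicates that both lines share enters these values. Taken pair by pair, the median difference was −0.0011 in the std pair, −0.11 in replicate 2 and −0.05 in replicate 3. The replicate 2 pair, where HBB was at 0 in both lines, gave the most negative of the 3 values.

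With the pairs as a block the median standard error of a member fell from 0.13 to 0.06 on the log2 scale, and 11 of the 77 genes (14.3%) passed the threshold, beside 19.7% of all genes. In this fit 3 genes were higher in pBabe-GNA13 (9.32% of all genes) and 8 were lower (10.4% of all genes). The share called was thus near or under the background in either direction. Of the 11, 9 belong to the large subunit and 2 to the small subunit. The calls of MRPL45, MRPL40, MRPL1 and MRPL42 held in each of the 3 blocked fits that left out 1 pair, and the other 7 did not hold in at least 1 of them. By DESeq2 with the block 6 genes were called (11.5% of all genes), the 3 higher ones and MRPL45, MRPL40 and MRPL1. Offsets for GC content and length in the blocked fit also gave 11 calls (19.3% of all genes), of which 10 were shared, with MRPS23 in the place of MRPL48.

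MRPL45, a large subunit protein near the tunnel exit that faces the inner membrane, showed the clearest difference. It was at 76.2, 68.7 and 69.5 CPM in pBabe-GNA13 std, 2 and 3, and at 91.3, 91.8 and 80.8 CPM in pBabe-vector 1, 2 and 3. The lines did not overlap, and the gene was lower in pBabe-GNA13 in 3 of 3 pairs. The log2 fold change was −0.30 ± 0.10 (SE) without the block (adjusted p = 0.411; exact two-sided permutation p = 0.1, the smallest that 3 against 3 libraries allow) and −0.30 ± 0.05 with it (adjusted p = 1.73e-04, edgeR). The gene lies at chr17:38297023-38323217 on the plus strand.

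MRPL40, a large subunit gene at chr22:19432545-19436075 on the plus strand, within the region deleted in 22q11 deletion syndrome, stood at 67.4, 59.0 and 68.8 CPM in pBabe-GNA13 and at 82.4, 71.7 and 84.3 CPM in pBabe-vector. The pairs gave nearly the same difference, −0.29, −0.28 and −0.29, while the level itself was lowest in replicate 2 of both lines. Its log2 fold change was −0.29 ± 0.11 without the block (adjusted p = 0.490, edgeR) and −0.29 ± 0.05 with it (adjusted p = 1.36e-04). The median gene of chromosome 22 was at −0.15, and relative to its chromosome MRPL40 no longer passed (adjusted p = 0.0740 with the chromosome offset and the block).

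MRPL1, whose bacterial counterpart forms the mobile L1 stalk beside the exit site of the large subunit, was at 45.2, 32.3 and 52.4 CPM in pBabe-GNA13 and at 54.1, 40.2 and 57.8 CPM in pBabe-vector. The ranges overlap, since replicate 2 was low and replicate 3 high in both lines, yet pBabe-GNA13 was lower in every pair. Its blocked log2 fold change was −0.24 ± 0.06 (adjusted p = 0.00332, edgeR), and it was −0.23 ± 0.20 without the block (adjusted p = 0.902). The gene lies at chr4:77862830-77952785 on the plus strand.

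The other 5 genes lower with the block had smaller or less even differences. MRPL23, a tunnel exit protein with a bacterial counterpart, was lower by 0.09, 0.41 and 0.14 on the log2 scale in the std, 2 and 3 pairs (blocked log2 fold change −0.21 ± 0.06, adjusted p = 0.00866, edgeR). MRPS22, a mitochondria-specific small subunit protein, gave −0.20 ± 0.06 (adjusted p = 0.0180), with the largest difference in replicate 2. MRPL48 (−0.19 ± 0.07, adjusted p = 0.0447), a protein of the central protuberance, was the remaining gene whose lines did not overlap, at 28.3, 24.2 and 28.4 CPM against 29.4, 29.7 and 33.6 CPM. MRPL36, the counterpart of a very small bacterial protein, and MRPS33 in the small subunit gave −0.18 ± 0.06 (adjusted p = 0.0286) and −0.16 ± 0.05 (adjusted p = 0.0360), with their largest differences in replicate 3. Without the block all 5 had adjusted p from 0.766 to 0.910.

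The 3 genes higher with the block were all large subunit genes. MRPL51 on chromosome 12 was at 139, 109 and 149 CPM in pBabe-GNA13 and at 114, 106 and 123 CPM in pBabe-vector (blocked log2 fold change 0.21 ± 0.06, adjusted p = 0.00770, edgeR). MRPL42, also on chromosome 12, was at 144, 126 and 153 CPM against 124, 110 and 133 CPM (0.21 ± 0.05, adjusted p = 0.00403). MRPL19 on chromosome 2, the counterpart of a bacterial protein at the subunit interface, was at 109, 88.1 and 108 CPM against 91.4, 84.4 and 89.9 CPM (0.20 ± 0.05, adjusted p = 0.0105). MRPL42 differed evenly between pairs, whereas MRPL51 and MRPL19 differed little in replicate 2. None of the 3 passed without the block, where adjusted p ran from 0.728 to 0.781.

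Chromosome medians differed between the lines, and the members are read against the median of their chromosome. Each chromosome was given a single median, so a shift of only part of a chromosome was not examined. The median gene of chromosome 12 was at a log2 fold change of 0.30, with 70.9% of its genes called higher in the blocked fit, and chromosomes 20 and 22 were at −0.21 and −0.15, with 50.9% and 38.3% called lower. Chromosomes 9 and 2 were at 0.12 and 0.07. The 3 members on chromosome 12, MRPL51, MRPL42 and MRPS35, were all above 0, yet all were below the median of their chromosome, at 0.22, 0.21 and 0.13. With the chromosome shift as an offset and the block, MRPL51 and MRPL42 turned to −0.09 each (adjusted p = 0.359 and 0.303, edgeR). MRPL19 on chromosome 2 kept its sign in that fit, at 0.13, but did not pass (adjusted p = 0.130, edgeR). None of the 3 higher calls thus held relative to their chromosome.

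The other chromosomes with several members showed the following. All 7 members on chromosome 11 (MRPL23, MRPL48, MRPL49, MRPL11, MRPL21, MRPL17 and MRPL16) were below 0, from −0.21 to −0.01, where the median gene was at −0.05. All 5 on chromosome 5 and all 4 on chromosome 3 were below 0 too, and 6 of 7 on chromosome 17, with MRPL12 at 0.08 as the exception. On chromosome 2, 6 of 8 were above 0, and on chromosome 19, 3 of 4. Mixed signs were found on chromosome 1 (3 of 8 above 0), 6 (2 of 6), 7 (2 of 4), 8 (1 of 3) and 9 (2 of 3). The members lie on 21 chromosomes in all.

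Relative to the median of their own chromosome, 57 members were below 0 and 20 above, with a median of −0.04 (small −0.04, large −0.06). By definition, all genes with at least 1 CPM divide about evenly around the median of their chromosome. In the blocked fit with the chromosome offset 4 members were called, 1 higher (6.79% of all genes) and 3 lower (7.08% of all genes), and 2 of these, MRPL45 and MRPL1, were also called with the block alone. MRPL45 kept a log2 fold change of −0.26 (adjusted p = 0.00135, edgeR) and MRPL1 of −0.19 (adjusted p = 0.0231). MRPS35, a mitochondria-specific small subunit protein on chromosome 12, stood at −0.16 relative to the chromosome median (adjusted p = 0.0316, edgeR). Before the offset it was 0.13 higher in pBabe-GNA13. MRPS26, the only member on chromosome 20, stood at 0.27 relative to it (adjusted p = 4.56e-04). Its own levels were 121, 108 and 127 CPM in pBabe-GNA13 and 111, 104 and 126 CPM in pBabe-vector, a log2 fold change of 0.07 ± 0.11 (adjusted p = 0.975), beside a chromosome median of −0.21. MRPS24 was farthest above its chromosome at a log2 fold change of 0.70 ± 0.45 (adjusted p = 0.802), a value that rests on 19, 12 and 13 counts against 16, 7 and 5.

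**Figure D2:**
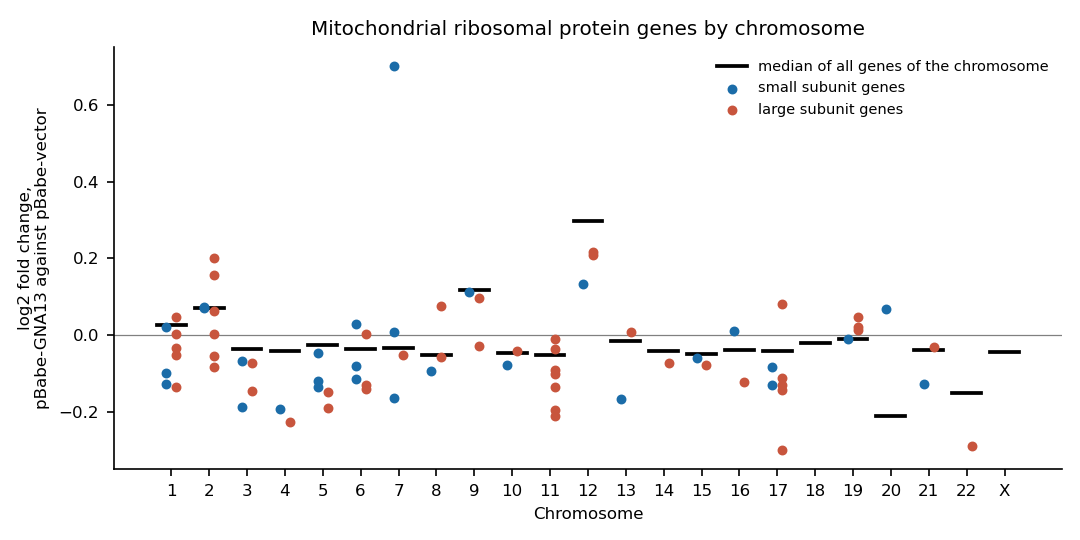
Log2 fold change between pBabe-GNA13 and pBabe-vector (fit without the block) for the 77 genes by chromosome; bars mark the median of all genes of the chromosome. The chromosome 12 genes sit at 0.13 to 0.22 under a chromosome median of 0.30, and the 7 chromosome 11 genes lie below 0.

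A few proteins have a name that differs from their known place. MRPS18A and MRPS30 are part of the large subunit in structures of the ribosome, and MRPS36 is now known as a subunit of the 2-oxoglutarate dehydrogenase complex. Their log2 fold changes between the lines were 0.03 ± 0.18, −0.12 ± 0.09 and −0.05 ± 0.10, and none was called with or without the block. Moving MRPS18A and MRPS30 to the large subunit and dropping MRPS36 left the medians of the small and large subunit at −0.08 and −0.05.

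The second comparison is between replicates, and here the family moved as a group. The 2 libraries of replicate 3 were set against the 2 of replicate 2 in the fit with line and pair. The labels give no condition that separates the replicates, so this describes variation between cultures or preparations and not a treatment. Mitoribosome genes were higher in replicate 3: 56 of the 77 (72.7%) rose, beside 20.7% of all genes and 30.8% of genes with at least 10 CPM. One gene, MRPL10, fell (21.4% of all genes did). The median log2 fold change was 0.31, beside −0.01 over all genes with at least 1 CPM, and 69 of 77 genes were above 0 (50.1% of all genes). Both subunits took part, with 21 of 29 small and 35 of 48 large subunit genes called and medians of 0.28 and 0.32.

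The difference was seen in both lines. Libraries of the same number deviated together over 12778 genes (Pearson's r 0.807 for replicate 2 and 0.888 for replicate 3). The second line is thus no independent repeat. The median difference between replicates 3 and 2 was 0.32 in pBabe-GNA13, with 73 genes above 0, and 0.26 in pBabe-vector, with 69 above 0. Over the 77 genes the differences in the lines had a Pearson correlation of 0.732, given as a description since the genes share the same libraries. Both replicate 3 libraries were above both replicate 2 libraries in 66 genes (29.0% of all genes). Replicate 3 was the highest of the 3 libraries in both lines for 56 genes (27.1% of all genes), and replicate 2 the lowest in both for 50 (23.4% of all genes), with the std libraries between them. The summed level of the family was 5473, 4785 and 5963 CPM in pBabe-GNA13 std, 2 and 3 and 5401, 5137 and 6110 CPM in pBabe-vector 1, 2 and 3. The differences of this sum between replicates 3 and 2 exceed those between the lines within any pair.

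**Figure D3:**
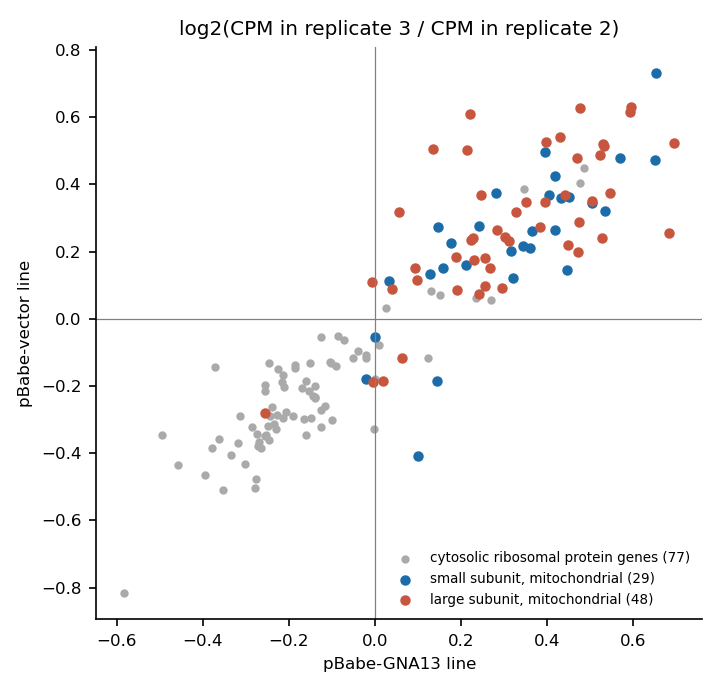
Log2 ratio of CPM in replicate 3 to replicate 2 in the pBabe-GNA13 line (x) and the pBabe-vector line (y) for 29 small and 48 large subunit mitochondrial genes and 77 cytosolic ribosomal protein genes. The mitochondrial genes gather above 0 in both lines and most cytosolic genes below 0.

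MRPL18, a large subunit protein with a bacterial counterpart that binds 5S rRNA in bacteria, had the smallest p. It was at 70.2 and 80.5 CPM in replicate 2 of pBabe-GNA13 and pBabe-vector, at 106 and 123 CPM in replicate 3, and at 83.2 and 82.0 CPM in the std libraries. The log2 fold change between replicates was 0.60 ± 0.07 (adjusted p = 4.62e-08, edgeR), and its lines differed by −0.14 ± 0.21 (adjusted p = 0.968). MRPL1 followed at 32.3 and 40.2 CPM in replicate 2 and 52.4 and 57.8 CPM in replicate 3 (0.61 ± 0.07, adjusted p = 6.57e-08). MRPL1 was thus called in both comparisons, higher in replicate 3 and lower in pBabe-GNA13 within each pair.

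MRPS12, whose bacterial counterpart lines the decoding site, was at 62.2 and 70.2 CPM in replicate 2 and at 97.7 and 97.5 CPM in replicate 3 (0.56 ± 0.07, adjusted p = 2.03e-07, edgeR). MRPL9 was at 37.2 and 37.3 CPM and at 53.8 and 53.5 CPM (0.53 ± 0.07, adjusted p = 4.45e-07). In MRPL9 the lines agree to within 0.01 on the log2 scale in every pair, while the replicates differ by 0.53. The largest estimate was that of MRPS6, the counterpart of a bacterial platform protein, at 0.69 ± 0.10 (adjusted p = 1.93e-06). MRPS6 was chosen after its value was seen.

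The called genes ranged from 0.18 (MRPL16) to 0.69. Of the 21 that were not called higher, 8 had a log2 fold change below 0. MRPL10, the protein at the base of the L7/L12 stalk, was lower in replicate 3, at 57.1 and 63.0 CPM in replicate 2 against 47.9 and 51.9 CPM in replicate 3 (−0.27 ± 0.06, adjusted p = 0.00139, edgeR). MRPS14, MRPL28 and MRPL45 were at −0.10, −0.10 and −0.09 (adjusted p = 0.291, 0.275 and 0.333). MRPS24, MRPS36, MRPL30 and MRPS27 lay between −0.07 and −0.02. The remaining 13 were above 0 without passing the test, from MRPL41 at 0.05 to the weakly counted MRPL38 at 0.31 and MRPL53 at 0.46. MRPS36, which is no ribosomal protein by its known place, was at 21.2 and 22.5 CPM in replicate 2 and 21.2 and 21.7 CPM in replicate 3, whereas MRPS18A rose (0.44 ± 0.09, adjusted p = 3.02e-04) and MRPS30 stood at 0.15 ± 0.06 (adjusted p = 0.0524).

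The difference remained with other settings. Offsets for GC content and length gave 46 genes higher (22.4% of all genes) and 3 lower (19.6%) with a median of 0.25, and all 46 were among the 56. By DESeq2 50 were higher (16.4% of all genes) and 1 lower (15.3%). Across fits that left out 1 of the 4 libraries or the std pair, 41 to 60 genes were called, and 35 rose in each of the fits without 1 library. Of the 36 members that share no exon sequence with another gene, 26 rose. The log2 fold change between replicates had a Pearson correlation of −0.18 with log2 transcript length and of 0.12 with GC content over the 77 genes. The promoter cores did not separate the genes: CCGGAAG was present in 19 of 49 called promoters and 9 of 19 others, and AAGATGG in 15 of 49 and 8 of 19.

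Other values moved with the replicates as well, and over all genes 20.7% rose and 21.4% fell in replicate 3. Cytosolic ribosomal protein genes, chosen for comparison with earlier results known, went the other way: 54 of 77 fell in replicate 3 and 2 rose, with a median of −0.20. They summed to 85226 and 96276 CPM in replicate 2 and to 74027 and 79435 CPM in replicate 3. Of the 8 luminal markers, 5 fell in replicate 3 (KLK3, KLK2, TMPRSS2, FOLH1 and STEAP2), KLK3 from 4204 and 3784 CPM to 2445 and 1836 CPM. Between replicates 2 and 3 HBB went from 0 to 33.5 and 3.08 CPM, COL1A2 and KRT5 from 0, and ALB from 0.0588 and 0.0886 to 4.24 and 0.654 CPM. These 4 of the 7 markers of other cells rose in replicate 3, while VIM (log2 fold change −0.56, adjusted p = 0.0475, edgeR) and COL1A1 (−0.53, adjusted p = 0.00205) fell and TP63 was not called, at no more than 0.145 CPM in any library. HBB was at a similar level in std and in replicate 3 within each line. The family median deviated by 0.00 and −0.01 in the std libraries and by 0.13 and 0.17 in replicate 3. HBB was 10.9 times higher in pBabe-GNA13 replicate 3 than in pBabe-vector replicate 3. The median difference of the members between replicates 3 and 2 was 0.32 and 0.26 in these lines. The part of the marker signals in the mitoribosome difference was not tested.

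Several members share a start region with a gene on the opposite strand, which allows a comparison of neighbours. Within 1000 bases of the start, 27 members had such a partner and 24 of these partners were in the table. Some of these partners start inside the member or past its start, and the rest start upstream of it. MRPL46 and MRPS11, which start 63 bases apart on chromosome 15 and place a large and a small subunit gene side by side, both rose in replicate 3 (0.42 and 0.39, adjusted p = 0.00428 and 5.53e-05, edgeR). MRPL18 and TCP1, a chaperonin subunit gene 109 bases away, rose together as well (0.60 and 0.49). Among the 22 partners that are no members, 9 rose and 4 fell (20.7% and 21.4% of all genes), with a median of 0.18. Of their 22 member neighbours, 19 rose. MRPL47, for example, rose (0.22, adjusted p = 0.0109) and NDUFB5, a complex I gene 41 bases away, was at 0.04 (adjusted p = 0.709). MRPS34 rose (0.42) while EME2 fell (−0.36, adjusted p = 4.26e-04, edgeR). EME2 starts 340 bases past the start of MRPS34 and shares exon sequence with it, so the values of both are less certain.

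The rest of the mitochondrial translation apparatus was read from lists written with earlier results of these data known. No gene of these lists passed the test between the lines without the block. The mitoribosome proteins with other names were DAP3, CHCHD1, AURKAIP1, PTCD3, GADD45GIP1 and ICT1, which is MRPL58 in newer annotation. With the block 2 of these 6 were lower in pBabe-GNA13 (10.4% of all genes). They were ICT1 (−0.22 ± 0.06, adjusted p = 0.00569, edgeR) and GADD45GIP1 (−0.21 ± 0.06, adjusted p = 0.00935), and both also passed with the chromosome offset. CHCHD1 was at −0.05 ± 0.06 (adjusted p = 0.630). Between replicates 4 of the 6 rose (20.7% of all genes), CHCHD1, AURKAIP1, GADD45GIP1 and ICT1, with a median of 0.31 as in the members.

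Among 24 assembly factors, 1 was higher with the block (TRUB2, a mitochondrial pseudouridine synthase) and 5 were lower (MTG2, RPUSD4, RBFA, NOA1 and RNMTL1), beside 9.32% and 10.4% of all genes. MTG2, a GTPase of large subunit assembly on chromosome 20, was at −0.27 ± 0.05 (adjusted p = 4.74e-04, edgeR) and did not pass relative to its chromosome (adjusted p = 0.537). RPUSD4, a pseudouridine synthase acting on the large rRNA, and RBFA, which matures the small subunit, passed in both fits (−0.23 and −0.29 with the block). TRUB2, NOA1 and RNMTL1 did not pass with the chromosome offset (adjusted p = 0.728, 0.174 and 0.147), whereas YBEY, an endonuclease of rRNA maturation, was called higher there (0.28, adjusted p = 0.0373). In replicate 3, 15 of the 24 rose and 1 fell (20.7% and 21.4% of all genes), with a median of 0.28. The fall was that of NOA1, a GTPase of small subunit assembly (−0.25, adjusted p = 0.00270).

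Of 18 translation factors, 2 were higher with the block, TSFM, the elongation factor that recharges TUFM (0.38 ± 0.06, adjusted p = 4.01e-05, edgeR), and C12orf65, a rescue factor (0.30 ± 0.06, adjusted p = 6.10e-04). Both lie on chromosome 12 and neither passed relative to it. C14orf156, known as SLIRP, which protects mitochondrial mRNA with LRPPRC, was lower (−0.17 ± 0.06, adjusted p = 0.0413) and did not pass with the chromosome offset (adjusted p = 0.166). These counts are near or under the shares of all genes in the blocked fit (9.32% higher and 10.4% lower). Of 20 genes for mitochondrial aminoacyl-tRNA formation, GATC and YARS2, again on chromosome 12, were higher (0.34 and 0.19) and GATB and QRSL1, the partners of GATC in the amidotransferase that makes glutaminyl-tRNA, were lower (−0.21 and −0.17). None of these 4 passed with the chromosome offset. In replicate 3, 7 factors rose and 2 fell (20.7% and 21.4% of all genes), with a median of 0.13. Of the tRNA genes, 10 rose and 1 fell, with a median of 0.22. After GC and length offsets 3 factors rose and 1 fell, and 12 tRNA genes rose and 1 fell (22.4% and 19.6% of all genes).

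The RNAs that the mitoribosome contains and translates differed most between the std libraries and the others. The 13 mRNAs of mitochondrial DNA summed to 15576 CPM in pBabe-GNA13 std and 19450 CPM in pBabe-vector replicate 1, and to 52874 to 59596 CPM in the other 4 libraries. The members showed no such gap, with sums of 5473 and 5401 CPM in the std libraries. With the block MT-CO2 (−0.18 ± 0.05, adjusted p = 0.0182, edgeR) and MT-ATP8 (−0.19 ± 0.06, adjusted p = 0.0281) were lower in pBabe-GNA13, as was the 12S rRNA gene MT-RNR1 (−0.21 ± 0.05, adjusted p = 0.00305), while the 16S rRNA gene MT-RNR2 was at −0.11 ± 0.05 (adjusted p = 0.130) and MT-CO1 at −0.14 ± 0.06 (adjusted p = 0.0747). Relative to the median of the mitochondrial genes, MT-CO2, MT-ATP8 and MT-RNR1 no longer passed (adjusted p = 0.337, 0.360 and 0.124) and MT-ND1 was called higher (0.17, adjusted p = 0.0476). In replicate 3, 8 of the 13 mRNAs and MT-RNR1 rose (20.7% of all genes did), with a median of 0.23 for the mRNAs. After GC and length offsets 3 of the 13 rose (22.4% of all genes), with a median of 0.02.

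Of 10 regulators of mitochondrial biogenesis in the table, 1 was lower with the block (10.4% of all genes). This was TFAM, the packaging and transcription factor of mitochondrial DNA (−0.22 ± 0.05, adjusted p = 0.00223, edgeR), which also passed relative to its chromosome (adjusted p = 0.0176). MYC and ESRRA were at 0.09 ± 0.05 and −0.09 ± 0.05 (adjusted p = 0.245 and 0.251). Between replicates 4 of the 10 rose (GABPB1, TFAM, PPARGC1B and PPRC1) and 2 fell (GABPA and MYC), beside 20.7% and 21.4% of all genes. PPRC1, a coactivator related to PGC-1, went from 63.7 and 65.9 CPM in replicate 2 to 93.6 and 103 CPM in replicate 3, and MYC from 331 and 308 CPM to 239 and 214 CPM. GABPB1 and GABPA, the subunits of the ETS factor GABP, thus moved in opposite directions (0.35 and −0.24, adjusted p = 0.00256 and 0.00801).

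The cytosolic ribosome was set beside the family for the comparison between the lines. Its 77 genes had a median log2 fold change of −0.15, beside −0.06 in the mitochondrial family of the same number. With the block 44 cytosolic genes were lower and 2 higher, against 8 and 3 mitochondrial genes (10.4% and 9.32% of all genes). With the block and the chromosome offset 25 cytosolic and 3 mitochondrial genes were lower (7.08% of all genes). In both families no gene passed without the block.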

How the data were processed

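RNA-seq of 6 LNCaP libraries was used. Per the study's methods and the submitters' processing notes, reads were checked with FastQC 0.11.7, aligned with STAR to the Gencode 38 transcriptome and counted with featureCounts; the STAR version was not given in the sources used here. The authors deposited raw counts, whole numbers of reads for each gene symbol without normalization, and 0 columns were left out. The heading of the pBabe-GNA13 std library repeats number 2, so that library is tied to its line only. Counts were tested over all 17297 genes without a filter by edgeR 4.0.16 (TMM, quasi-likelihood, R 4.3.3) with Benjamini-Hochberg adjustment, with the line as the only term, and with line and pair for replicate 3 against replicate 2. The study's own test was limma on log2 CPM; a count test was used because the file holds counts. Standard errors are the log2 fold change over the root of F. CPM are TMM-normalized; errors are SD or SE. Totals of 33002160 to 40628970 make a count of 3, taken as the floor, 0.0715 to 0.0935 CPM; this covers counting error only.

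Deviations from the line means had Pearson's r of 0.659 (std), 0.807 (replicate 2) and 0.888 (replicate 3) within pairs and −0.736 to 0.125 between others, over 12778 genes, so the numbers and the tag in the headings pair the libraries. Chromosome, length and overlaps came from Gencode 44 (GRCh38), which matched 14470 symbols, 697 of them through an older symbol, and all 77 members. Chromosome offsets used chromosomes with at least 20 genes of at least 1 CPM. GC and length offsets were loess fits with a span of 0.5. Alternatives included DESeq2 1.42.0. Permutation tests used SciPy 1.17.1.

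The members and gene lists were chosen with earlier results of these data known. Genes were named by rule: GNA13; per subunit the 4 smallest p without the block and the 3 highest and 3 lowest levels per kilobase; up to 6 rises and falls called with the block; the 4 smallest p in each direction between replicates; the 3 farthest from their chromosome in each direction; MRPS18A, MRPS30 and MRPS36; and 3 genes of each list. Other genes named in the text were chosen after their values were seen.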

Additional observations from a re-analysis of the deposited data

How the results depend on the processing

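The count of members called between the lines changed most with the replicate block, from 0 to 11. RLE size factors with the block also gave 11, centring on the median gene with the block 10, the newer quasi-likelihood method with the block 9, DESeq2 with the block 6 and the chromosome offset with the block 4; GC and length offsets with the block gave 11. Without the replicate 2 pair the blocked fit gave 7. Over fits without 1 library or 1 pair the count ran from 0 to 17, the lowest without the block and the highest in the blocked fit without the std pair; the cause was not tested. Without the block 0 members were called with RLE size factors, median centring, DESeq2, filterByExpr, the chromosome offset, the newer quasi-likelihood method, and thresholds of 0.01 and 0.10. The family median between the lines ran from −0.13 to 0.04 over fits without 1 library or 1 pair (small subunit −0.15 to 0.03, large subunit −0.12 to 0.04). The fits without 1 library had no block, so the difference between replicates enters these ranges. The SD of the library medians within a line was 0.15. That SD includes the difference between replicates that both lines share, so it does not measure the error of the line median. In the other lists of mitochondrial translation 16 genes were called with the block and 5 with the block and the chromosome offset.

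With the block, the chromosome offset turned the sign of 13 members, 9 from above to below 0 and 4 the other way. Of those called with the block alone 2 turned: MRPL42 was at −0.088 without and −0.086 with the block, and MRPL51 at −0.079 and −0.086. MRPL36 ran from −0.32 to 0.0018 between the lines over fits without 1 library or pair. Both ends came from fits without 1 library, which had no block. In the blocked fits without the std, replicate 2 or replicate 3 pair it was at −0.20, −0.21 and −0.13. Between replicates 3 and 2, MRPL28 ran from −0.21 to 0.014 and MRPL45 from −0.17 to 0.0067, while the family median ran from 0.25 to 0.32 and the count called from 41 to 60. GC and length offsets lowered that median from 0.31 to 0.25, and leaving out pBabe-GNA13 replicate 2 also gave 0.25. The median SE of a member without the block was 0.13 on the log2 scale, larger than most of the differences between the lines, and with 2 residual degrees of freedom the blocked fit leans on the spread of all genes. The alternatives with the newer quasi-likelihood method, and with the block under DESeq2, RLE and median centring, were chosen after seeing the data. MRPS24, with 5 to 19 counts, is limited by depth.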
